A study of Mus musculus with 9 samples.

Results

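Pericytes from the brainstem of normally sleeping mice were described from 168 cells, which made up 8.40% (7.22% to 9.71%) of the 1999 cells of that library with a cell type in the rows of the study's list used here. Those were its first rows in barcode order, and of the 1732 cells of the library without a name in them only 105 lay before the last barcode used. The others may be named in rows not used here, as pericytes too, and all 1732 are called unlisted. The members were the cells that carried the study's own pericyte name for the brainstem normal sleep (NS) group, and their barcodes were found in the library numbered 7 of 9 in the deposited table, which held 3731 cells of 29571 in the whole table. Of the 168 cells, 37 carried 3 or more counts of Dcn, Lum and Col1a1 together and were described apart from the other 131. These 3 genes encode matrix proteins that fibroblasts make. The groups are called the fibroblast gene group (37 cells) and the remaining pericytes (131 cells) throughout.

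The study compared single cells of the brainstem, cortex and hypothalamus from mice under normal sleep, sleep deprivation (SD) or recovery sleep (RS). The NS mice were wild-type male C57BL/6 J animals of 9 to 11 weeks that slept freely and were collected at zeitgeber time 12 h, when the lights went off. The brainstems of 3 mice were pooled into 1 library, so no spread between animals could be had and no p-value is given. Tissue was digested with papain, passed through a 70 µm strainer and cleared of myelin with magnetic beads, and the cells were not sorted for a vascular marker.

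Pericytes sit on the wall of capillaries, inside the basement membrane they share with the endothelium, and are recruited there by platelet derived growth factor from endothelial cells through the receptor encoded by Pdgfrb. In the brain they are known for their part in the blood-brain barrier and in capillary tone. Vtn, Kcnj8 and Abcc9 are usual markers of the type in mouse brain. Vtn encodes vitronectin, a secreted glycoprotein of the matrix, whereas Kcnj8 and Abcc9 encode the pore and the regulatory subunit of an ATP-sensitive potassium channel.

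Kcnj8 (chr6:142564837-142571614, minus strand) and Abcc9 (chr6:142587862-142702315, minus strand) are neighbours on mouse chromosome 6 with 16247 bases between them, and Vtn lies on chromosome 11 (chr11:78499091-78502324, plus strand), all in the GENCODE annotation of GRCm38. The promoters of these 3 markers are shown because the label of the cells is checked on them. Each runs from 250 bases before to 50 bases after the gene start, from RefSeq on GRCm38.p6, the build to which the reads had been mapped, at chr11:78498870-78499169 (plus), chr6:142571565-142571864 (minus) and chr6:142702225-142702524 (minus). Capitals mark TGGGAA or its reverse complement TTCCCA.
Vtn: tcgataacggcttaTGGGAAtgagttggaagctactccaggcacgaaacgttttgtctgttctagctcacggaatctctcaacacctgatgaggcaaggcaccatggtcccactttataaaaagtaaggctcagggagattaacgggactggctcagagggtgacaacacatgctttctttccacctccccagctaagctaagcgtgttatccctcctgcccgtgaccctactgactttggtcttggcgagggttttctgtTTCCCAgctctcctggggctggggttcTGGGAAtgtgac
Kcnj8: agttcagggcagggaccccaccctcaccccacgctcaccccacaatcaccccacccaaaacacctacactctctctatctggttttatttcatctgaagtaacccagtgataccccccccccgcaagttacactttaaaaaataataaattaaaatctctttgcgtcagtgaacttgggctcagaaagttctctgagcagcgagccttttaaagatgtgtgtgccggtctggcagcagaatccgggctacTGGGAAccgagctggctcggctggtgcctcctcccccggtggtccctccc
Abcc9: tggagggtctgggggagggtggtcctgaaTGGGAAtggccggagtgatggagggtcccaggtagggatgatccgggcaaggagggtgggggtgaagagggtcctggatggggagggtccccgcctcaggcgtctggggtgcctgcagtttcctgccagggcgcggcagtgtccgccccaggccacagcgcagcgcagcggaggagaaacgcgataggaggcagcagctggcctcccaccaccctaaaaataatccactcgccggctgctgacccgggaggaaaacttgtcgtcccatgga

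The Vtn promoter held 3 matches of TGGGAA on either strand, and those of Kcnj8 and Abcc9 held 1 each. This motif was present in 25.6% of 32851 mouse promoters of the same length. It was chosen for printing after the matches of 10 motifs, each searched on both strands, had been seen. Among the others CACCC was found in all 3 promoters and in 57.5% of promoters at large. The short string GGAA, which the printed motif contains, was likewise found in all 3 and in 96.0%. The string CATTCC was found in the Vtn and Abcc9 promoters and in 14.7% of promoters at large. The string TATAAA was found in that of Vtn alone and in 13.6%, and CCGCCC was found in that of Abcc9 alone and in 35.7%. The other 4 strings were not found in these windows. Of these GTGGGAA, an extension of the printed motif, was present in 6.38% of promoters at large. The string ACGTG was present in 19.6%, and the palindrome CACGTG, which contains it, was present in 7.15%. The string TGTTTAC was present in 3.65%. A match is a description of the letters and not of a bound site.

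Values are counts of unique molecular identifiers (UMIs), of which each stands for 1 captured molecule, or the summed UMIs of a group scaled to the same total in every group (CPM, the share of the group's UMIs that a gene takes), with exact 95% intervals that cover counting error only. The remaining pericytes held 95971 UMIs in all, with a median of 676 per cell (497 to 2131) and 393 genes, and the fibroblast gene group held 51956, with a median of 1415 per cell (533 to 2799) and 750 genes. Mitochondrial genes took 7.23% and 6.96% of the UMIs. A doublet caller (Scrublet) marked 44 of the 3731 cells of the library and none of the 168. Barcodes of the listed cells also occurred in each other library, 5 to 13 times, and 2 of the 168 pericyte barcodes did so. The cell types had been found by clustering on these same counts, so all comparisons between types describe what the types were made from.

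The 3 markers set the remaining pericytes apart from every other listed type with at least 50 cells, and 1 of the 3 also marked the fibroblast gene group. Vtn was found in 125 of 131 remaining pericytes (95.4%, 90.3% to 98.3%) with 0 to 24 UMIs a cell and a median of 5. It was found in 31 of 37 cells of the fibroblast gene group (83.8%, 68.0% to 93.8%), with a median of 4 and the same maximum of 24. Microglia, which should lack it, had a Vtn UMI in 7.83% of cells at a median depth of 796 UMIs. Thus both pericyte groups lay far above that background, at a lower and a higher median depth than the microglia.

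Kcnj8 was found in 58 remaining pericytes (44.3%, 35.6% to 53.2%), with 0 to 4 UMIs a cell, against 1 of 37 cells in the fibroblast gene group (2.70%, 0.0684% to 14.2%) and 1.28% of microglia. Abcc9 was found in 39 remaining pericytes (29.8%, 22.1% to 38.4%), with 0 to 3 UMIs a cell, in none of the 37 (0% to 9.49%), and in 0.729% of microglia. The shares in the fibroblast gene group could not be told from the microglial background, although its cells were the deeper ones. With every cell thinned to 500 UMIs, which left 127 of 131 and all 37 cells, Vtn was found in 92.1% and 70.3%, Kcnj8 in 32.3% and 0%, and Abcc9 in 22.0% and 0% of the remaining pericytes and the fibroblast gene group.

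Most cells showed 1 or 2 of the 3 markers. Of the 131 remaining pericytes, 17 carried Vtn, Kcnj8 and Abcc9, 40 carried Vtn and Kcnj8 without Abcc9, 20 carried Vtn and Abcc9 without Kcnj8, and 48 carried Vtn alone. Kcnj8 and Abcc9 gave at most 4 and 3 UMIs a cell, so the joint counts rest on few UMIs. A further 1 cell had Kcnj8 alone, 2 had Abcc9 alone, and 3 had none of the markers. In the fibroblast gene group 30 cells carried Vtn alone, 6 carried none and 1 carried Vtn and Kcnj8.

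By summed level, Vtn stood at 8127 CPM (7567 to 8718) in the remaining pericytes, 3965 CPM (3442 to 4545) in the fibroblast gene group, 318 CPM in endothelial cells, 237 CPM in arterial smooth muscle cells (VSMCA) and 98.6 CPM in microglia. Kcnj8 stood at 875 CPM (698 to 1084), 19.2 CPM from 1 UMI, 35.5, 6.49 and 13.8 CPM in the same order. Abcc9 stood at 604 CPM (459 to 781) in the remaining pericytes, 33.9 CPM in endothelial cells and 7.89 CPM in microglia, and had 0 UMIs in the fibroblast gene group and in VSMCA. A group at 0 may hold up to 3 UMIs, taken here as its floor. On this scale the level of Abcc9 in the remaining pericytes was 10.5-fold the floor of the fibroblast gene group and 62.1-fold that of VSMCA. Such folds leave out the counting error of the level itself. Vtn was 2.05-fold (1.76 to 2.40) higher in the remaining pericytes than in the fibroblast gene group.

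**Figure D1:**
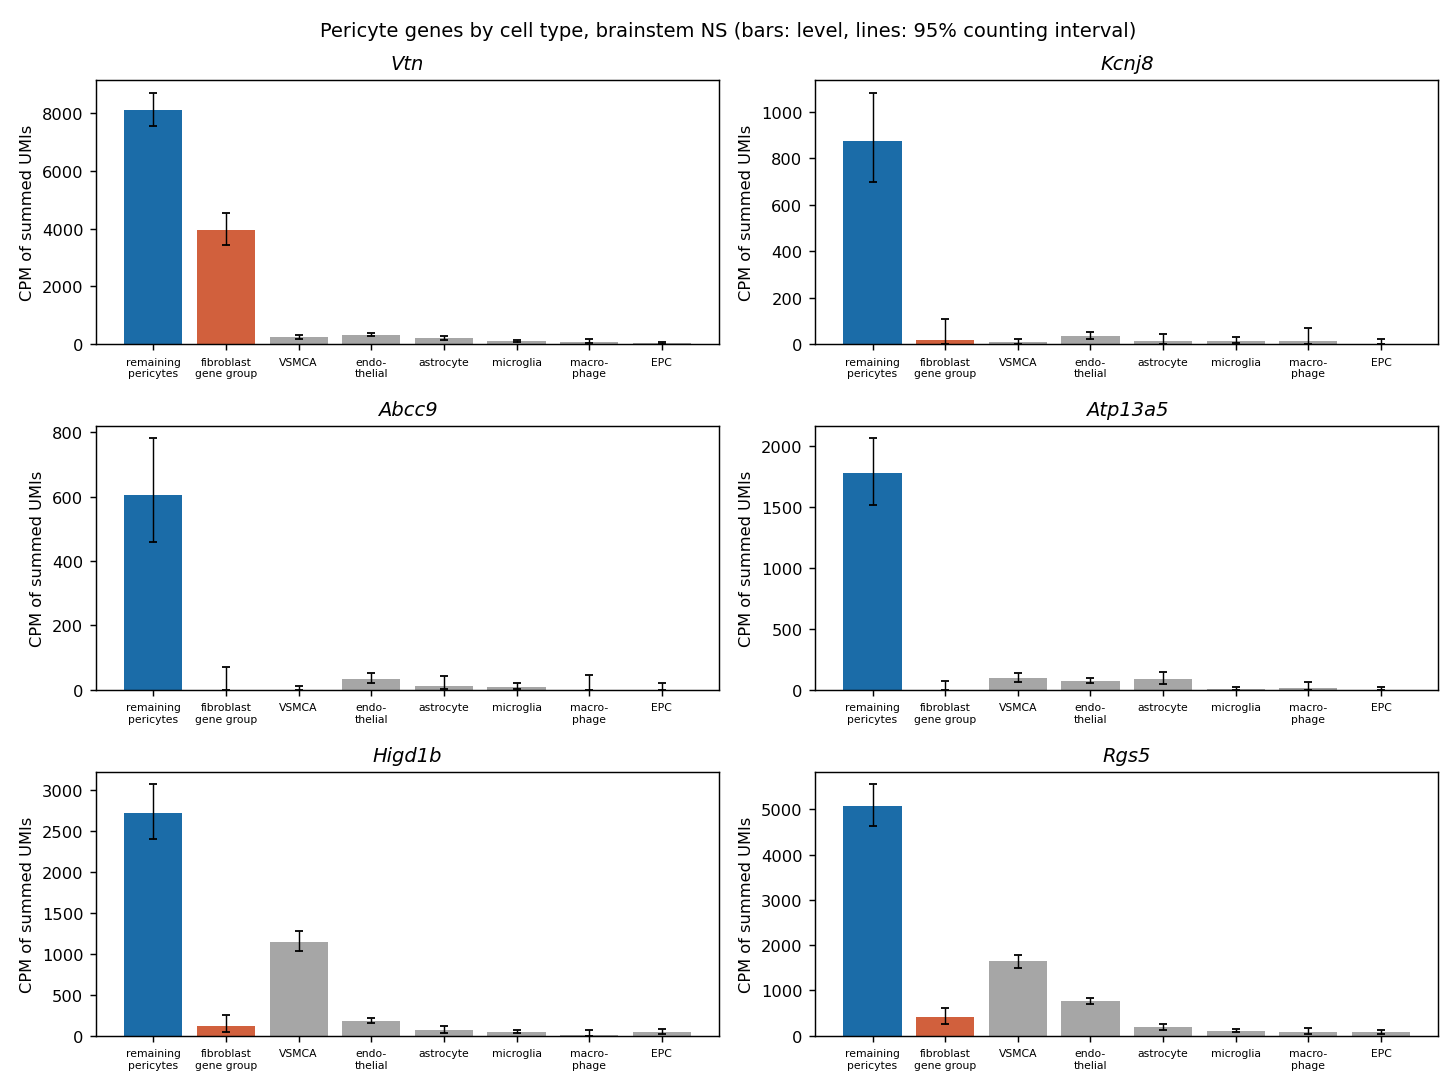
Summed level (CPM, linear axis from 0) of 6 genes in the 2 pericyte groups and 6 other cell types of the brainstem NS library. Bars are levels and lines 95% counting intervals. Vtn is high in both pericyte groups (8127 and 3965 CPM), whereas Atp13a5 stands at 1771 CPM in the remaining pericytes and has no UMI in the fibroblast gene group.

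The pericyte name covered cells with and cells without UMIs of fibroblast genes. The 3 genes used for the split had 0 UMIs in 119 cells, 1 in 8, 2 in 4, 3 in 5 and 4 in 2, and 5 to 30 in the other 30 cells. The share of the fibroblast gene group was 22.0% (16.0% to 29.1%) of the 168 cells, and 17.1% after thinning to 500 UMIs. It took 25 of the 35 pericytes with at least 1000 UMIs (71.4%), so the deep cells were mostly of that group. Depth moved with the split, and its part in the differences between the groups was not tested beyond the thinned values.

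A further 25 fibroblast or leptomeningeal genes and 24 pericyte genes, none of them among the split genes or the 3 markers, were summed in each cell. UMIs of the fibroblast list outnumbered those of the pericyte list in all 37 cells of the fibroblast gene group, where the pericyte list had a median of 3 UMIs (0 to 22) and the fibroblast list of 34 (7 to 336). In the remaining pericytes the medians were 15 (0 to 45) and 3 (0 to 287), and the pericyte list was ahead in 120 of 131 cells. All 4 cells just outside the threshold (2 UMIs) and all 5 just inside it (3 UMIs) had more fibroblast than pericyte list UMIs. The pericyte list was also ahead in 197 of 230 VSMCA, so this order separates the cells from fibroblast genes and not from other mural cells. Of the 120 cells, 117 carried at least 1 of Vtn, Kcnj8 and Abcc9 and 37 carried Vtn alone. The fibroblast gene group carried Vtn in 31 of 37 cells but almost none of the channel genes, and is called by its genes here.

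The other 11 remaining pericytes had 7 to 287 UMIs of the fibroblast list, 0 to 5 of the pericyte list and none of Kcnj8 or Abcc9, at a median of 794 UMIs. They passed under the threshold with 0 to 2 UMIs of Dcn, Lum and Col1a1, and 3 of them had 0. Values without these 11 cells, a choice made after their counts had been seen, are given beside the results they moved most.

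**Figure D2:**
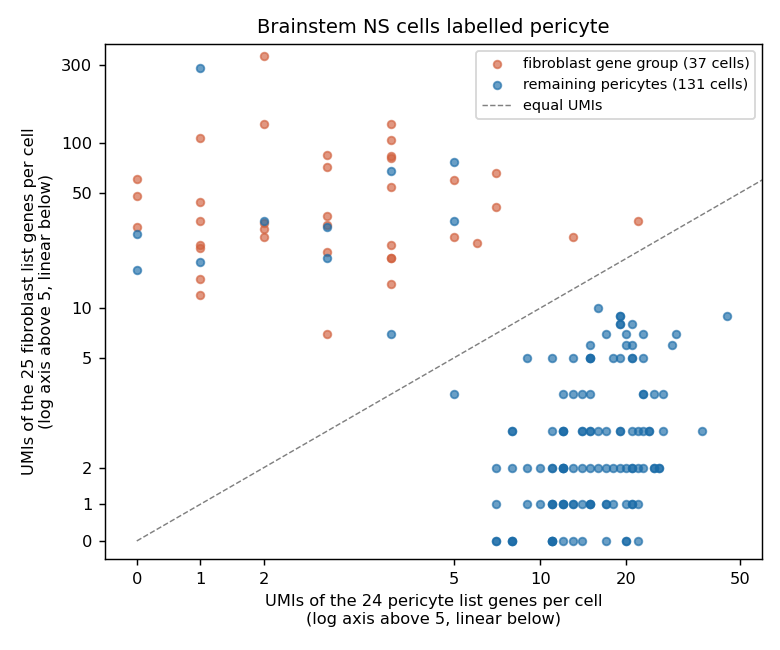
UMIs of the 24 pericyte list genes (x) and the 25 fibroblast list genes (y) in each of the 168 cells, both axes linear below 5 and logarithmic above. The 37 cells of the fibroblast gene group all lie above the dashed line of equal UMIs, as do 11 of the 131 remaining pericytes, and the other 120 lie under it.

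Cells with 3 or more UMIs of Dcn, Lum and Col1a1 also occurred among listed oligodendrocytes, in 5 of 43 (11.6%, against 22.0% of the pericytes). They numbered 1 of 55 glutamatergic neurons, and none was found under the 9 other names listed. A further 25 of the 1732 unlisted cells (1.44%) had them, and some of these may be pericytes by name. The listed oligodendrocytes themselves had a fibroblast list level of 27563 CPM. As a type of under 50 cells they stood outside the main comparison of the pericytes with the highest other type.

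Most pericyte genes beyond the 3 markers were above every other type compared in the remaining pericytes, though some were no higher than in VSMCA. Of the 24 genes of the pericyte list 21 could be compared, with 10 or more UMIs on both sides together, and 15 were at least 2-fold above the highest of the 7 other types, Des was at least 2-fold below it, and 5 lay between. Among all 11291 genes compared 1.80% were at least 2-fold above and 57.1% at least 2-fold below. The list had a median log2 ratio of 1.81, against -1.24 over all genes, and 1 of its genes, Steap4, had no UMI. Ratios for such counts were taken after adding 10 CPM on both sides. The list holds genes known for this type, chosen with earlier results of these data known, so the count is a description only.

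Atp13a5, which encodes an ATPase of the P5 family, had 170 UMIs in 86 of the 131 cells (65.6%), 0 to 7 a cell, or 1771 CPM (1515 to 2059), and was the member with the sharpest contrast between the pericyte groups. Its level was 94.1 CPM in VSMCA, 88.2 in astrocytes and 72.5 in endothelial cells, and the fibroblast gene group had none. The level in the remaining pericytes was 30.7-fold the floor of 3 UMIs in that group. Art3, of the ADP-ribosyltransferase family, stood at 927 CPM (745 to 1141) against 38.5 CPM from 2 UMIs in the fibroblast gene group and at most 27.8 CPM in the 7 other types. P2ry14, a receptor for UDP-sugars, stood at 990 CPM (801 to 1210) against 38.5 CPM, also from 2 UMIs, and 107 CPM in VSMCA. Each of these was low in the fibroblast gene group and in every other type compared.

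Mural genes shared with smooth muscle showed a smaller contrast. Rgs5, a regulator of G-protein signalling, was found in 118 remaining pericytes with 0 to 19 UMIs and a median of 3, and its level was 5085 CPM (4644 to 5557), which was 3.10-fold (2.73 to 3.51) that of VSMCA (1642 CPM) and 6.63-fold (5.84 to 7.53) that of endothelial cells (766 CPM). In the fibroblast gene group it stood at 404 CPM, of which 14 of 21 UMIs came from 1 cell. Higd1b, a mitochondrial membrane protein gene, stood at 2720 CPM (2400 to 3070), or 2.37-fold (2.01 to 2.79) the level in VSMCA. Notch3, the receptor that maintains mural cells, was at 260 CPM (169 to 385) against 276 CPM in VSMCA, and Mcam, an adhesion molecule, was at 125 CPM (64.6 to 218) against 217 CPM. The counting intervals of Notch3 held the VSMCA level, and so did those of Mcam.

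Ifitm1, an interferon induced membrane protein gene, was high in the remaining pericytes (2386 CPM, 2087 to 2716) and also present in the fibroblast gene group (982 CPM, 731 to 1291), against 120 CPM at most in the other types. Zic1, a transcription factor gene, had the same order, with 542 CPM (405 to 711), 366 CPM (220 to 571) and 140 CPM in VSMCA. Tbx18, a transcription factor gene of mural cells, was the 1 member of the pericyte list that was higher in the fibroblast gene group, at 289 CPM (162 to 476) from 15 UMIs against 62.5 CPM (22.9 to 136) from 6, or 35.2 CPM (7.26 to 103) without the 11 cells. Cspg4, the NG2 proteoglycan gene, had 26 UMIs (271 CPM) in the remaining pericytes and none in the fibroblast gene group. Anpep, an aminopeptidase gene of the list, had 7 UMIs in the remaining pericytes, none in the fibroblast gene group or VSMCA and 2 in endothelial cells, too few for the comparison with the highest other type.

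Channel and transporter genes went with the pericyte list in part. Of 19 genes 17 were compared, and 6, among them Kcnj8, Abcc9, Slc12a2, Slc19a1 and Atp13a5, were at least 2-fold above the highest other type and 5 at least 2-fold below, against 1.80% and 57.1% of all genes compared. Kcnj8 and Abcc9 are the markers, and Slc19a1 and Atp13a5 belong to the pericyte list too, so this count partly repeats theirs. Slc12a2, a sodium, potassium and chloride cotransporter gene, stood at 219 CPM (135 to 334) against 76.3 CPM in glutamatergic neurons. Slc19a1, the reduced folate carrier gene, stood at 375 CPM (263 to 519) against 149 CPM in VSMCA.

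Atp1b2, a sodium pump subunit gene of astrocytes, had 55 UMIs in 45 remaining pericytes and stood at 573 CPM (432 to 746), against 1565 CPM in astrocytes, 308 CPM in VSMCA and 250 CPM (133 to 428) in the fibroblast gene group. The glutamate transporter genes Slc1a2 and Slc1a3 had 1 and 4 UMIs summed over all 131 remaining pericytes. The source of the Atp1b2 UMIs was not tested. The 8 genes of the astrocyte list summed to 344 CPM (237 to 483) in the remaining pericytes and 15508 CPM in astrocytes.

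Among receptor and second messenger genes, 17 of 19 were compared. Pdgfrb, Hes1, Rgs5 and P2ry14 were at least 2-fold above the highest other type and Tgfbr2, Eng, Vegfa and Pde5a at least 2-fold below, against 1.80% and 57.1% of all genes compared. Pdgfrb, Rgs5 and P2ry14 are also in the pericyte list. Pdgfrb had 78 UMIs in 54 remaining pericytes, a level of 813 CPM (642 to 1014), which was 5.96-fold (4.05 to 8.89) that of VSMCA and 4.69-fold (2.35 to 10.6) that of the fibroblast gene group. Hes1, a target of Notch signalling, stood at 656 CPM (504 to 840) and was similar in the fibroblast gene group (558 CPM, 374 to 802). Gucy1b3 and Gucy1a3, the subunits of the nitric oxide receptor, stood at 365 CPM (254 to 507) and 240 CPM (152 to 360) in the remaining pericytes, 192 and 295 CPM in VSMCA, and 77.0 and 19.2 CPM from 4 and 1 UMIs in the fibroblast gene group.

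Basement membrane genes differed among themselves. Of 18 genes, Lama4, Lamb1, Nid1, Nid2 and Vtn were at least 2-fold above the highest other type and 6 were at least 2-fold below, with a median log2 ratio of -0.31, against 1.80% above, 57.1% below and a median of -1.24 over all genes compared. Vtn is 1 of the 3 markers, so this count partly repeats theirs. Without the 11 cells 4 of 17 were above, Nid2 no longer among them, and 9 below. Nid1, a laminin and collagen linker gene, had 19 UMIs in 17 cells or 198 CPM (119 to 309) against 13.9 CPM in endothelial cells, and the fibroblast gene group had 173 CPM. Lama4, a laminin chain gene, stood at 104 CPM (50 to 192) against 21.6 CPM. The main network collagen genes were sparse, with 3 UMIs of Col4a1 (31.3 CPM) and 6 of Col4a2 (62.5 CPM), and Nid2 rested on 3 UMIs.

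The respiratory chain genes Ndufa4l2 and Cox4i2 were higher, and Ndufa4 was lower, in the remaining pericytes than in all 7 other types. Ndufa4l2 and Cox4i2 encode tissue restricted counterparts of Ndufa4 and Cox4i1, which most cells use in complex IV of the mitochondria. Of the 6 genes of this list Ndufa4l2, Cox4i2 and Higd1b were at least 2-fold above the highest other type and Ndufa4 was at least 2-fold below, against 1.80% and 57.1% of all genes compared. The 3 higher genes are also members of the pericyte list, so they repeat its count. Ndufa4l2 was found in 91 of 131 cells (69.5%), 0 to 8 UMIs a cell with a median of 1, and stood at 1990 CPM (1718 to 2293), which was 4.17-fold (3.35 to 5.21) that of VSMCA and 20.2-fold (15.1 to 27.2) that of endothelial cells. Cox4i2 was found in 63 cells (48.1%), stood at 1125 CPM (923 to 1359) and was 4.39-fold (3.25 to 5.94) the VSMCA level. Both were low in the fibroblast gene group, with 6 and 1 UMIs, or 115 and 19.2 CPM.

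Ndufa4 had the opposite order. It had 21 UMIs in 11 remaining pericytes (8.40%), or 219 CPM (135 to 334), against 1078 CPM (814 to 1400) in the fibroblast gene group, 1136 CPM in endothelial cells, 993 in VSMCA, 759 in astrocytes and 459 in microglia, the lowest of the 7 other types. Relative to VSMCA the ratio was 0.220 (0.134 to 0.343). Of the 21 UMIs, 15 lay in the 11 cells with more fibroblast than pericyte list UMIs, and the other 120 cells had 6 UMIs in 4 cells (3.33%), or 70.4 CPM (25.8 to 153). Ndufa4l2 had no UMI in those 11 cells and stood at 2241 CPM (1934 to 2582) in the 120. Cox4i1 differed little, at 792 CPM (624 to 991) in the remaining pericytes, 924 CPM (681 to 1225) in the fibroblast gene group and 826 to 1150 CPM in the 7 other types.

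**Figure D3:**
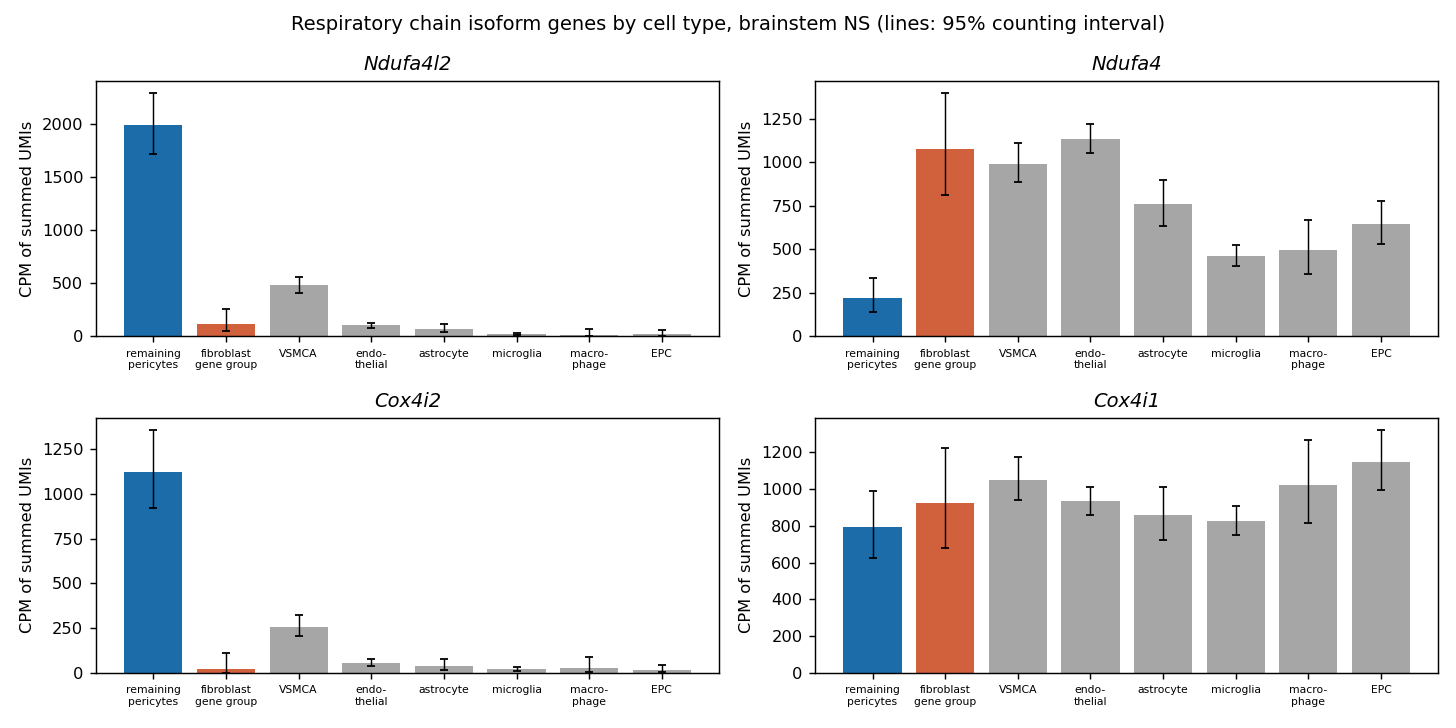
Summed level (CPM, linear axes from 0, 1 scale a panel) of the respiratory chain genes Ndufa4l2, Ndufa4, Cox4i2 and Cox4i1 in the 2 pericyte groups and 6 other types of the brainstem NS library, with 95% counting intervals. In the remaining pericytes Ndufa4l2 (1990 CPM) and Cox4i2 (1125 CPM) are highest of the groups drawn and Ndufa4 (219 CPM) is lowest, whereas Cox4i1 (792 CPM) is near the others.

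All 14 members of the smooth muscle list were at least 2-fold below the highest other type, with a median log2 ratio of -4.33, against 57.1% of all genes compared. Acta2, the smooth muscle actin gene, had 25 UMIs in 14 remaining pericytes (260 CPM, 169 to 385) against 7027 CPM in VSMCA. Tagln, transgelin, stood at 52.1 CPM against 5992 CPM. Myl9, a myosin light chain gene, was found in 100 of 131 cells with a median of 2 UMIs and 2615 CPM (2302 to 2960) against 7219 CPM. Crip1 stood at 2397 CPM against 18859 CPM.

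Genes of endothelial, glial and neuronal cells were low, whereas those of the fibroblast list were not. The endothelial list of 15 genes summed to 1834 CPM (1573 to 2126), 0 to 24 UMIs a cell with a median of 1, against 35830 CPM in endothelial cells, and all 15 were at least 2-fold below the highest other type, against 57.1% of all genes compared. Cldn5, the tight junction gene that defines brain endothelium, had 3 UMIs (31.3 CPM). The microglia list summed to 1000.3 CPM and the neuron list to 302 CPM with 5 of 7 genes at 0. The neuron list was lower in endothelial cells (151 CPM), astrocytes (129 CPM), VSMCA (58.4 CPM) and microglia (47.3 CPM). It was higher in ependymocytes (346 CPM) and glutamatergic neurons (3947 CPM). Meg3, a gene of that list, was at least 2-fold above its level in VSMCA, endothelial cells, microglia and astrocytes. The oligodendrocyte list summed to 20.8 CPM with 5 of 6 genes at 0. The macrophage list summed to 62.5 CPM with 5 of 6 at 0 and the choroid plexus list to 20.8 CPM with 3 of 4 at 0. The fibroblast list summed to 10034 CPM (9410 to 10689), under the 27563 CPM of the listed oligodendrocytes, which stood outside the comparison. Of its genes 8 of 17 compared were at least 2-fold above the highest other type and 2 below, against 1.80% and 57.1% of all genes compared. Without the 11 cells its level was 4001 CPM, 4 of 15 genes (Col1a2, Igf2, Mgp and Slc6a20a) were above and 6 below, Col3a1 and Igfbp2 had no UMI, and Ptgds had 17 UMIs in place of 377. The ependymal list summed to 1032 CPM, of which Rarres2, a chemoattractant gene, held 96 of 99 UMIs. It summed to 9941 CPM in ependymocytes (EPC). All 5 genes were at least 2-fold below the highest other type, against 57.1% of all genes compared. Hemoglobin and Alas2 summed to 4210 CPM, of which 170 of 404 UMIs were in 1 cell.

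The 20 genes furthest above the highest other type, among genes of at least 100 CPM, included Rem1, Sod3, Saa1, Saa2, Slc16a12, Bmp4 and Phlda1, which were in neither the pericyte nor the fibroblast list nor among the markers or the basement membrane genes. Sod3, the extracellular superoxide dismutase gene, was found in 43 remaining pericytes at 698 CPM (541 to 887) against 47.1 CPM in astrocytes. Rem1, which encodes a small GTPase that acts on calcium channels, stood at 260 CPM (169 to 385) against 6.49 CPM in VSMCA.

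Saa2 and Saa1, acute phase apolipoprotein genes, had 19 UMIs in 17 cells and 15 in 12 cells, or 198 and 156 CPM, against 12.0 and 7.71 CPM in the highest other types. They are near-identical copies, so the division of reads between them is uncertain. Slc16a12, a creatine transporter gene, stood at 250 CPM (160 to 372) and Bmp4, a growth factor gene, at 125 CPM (64.6 to 218) from 12 UMIs. Phlda1 stood at 438 CPM (315 to 592) and was equally present in the fibroblast gene group (481 CPM, 311 to 710). Bmp4 was higher in the listed oligodendrocytes (185 CPM), which were not among the types of 50 cells.

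Igf2 and Apod ranked 1 and 19 of these 20 genes but rested on the 11 cells named above. Igf2, a growth factor gene of the leptomeninges, had 63 UMIs in 14 remaining pericytes, of which 57 were in the 11 cells, and its level moved from 656 CPM (504 to 840) to 70.4 CPM (25.8 to 153) in the other 120, a log2 ratio over the highest other type of 4.67 and then 1.62. Apod, a lipid binding protein gene, had 86 UMIs, of which 80 were in the 11 cells, and moved from 896 CPM to 70.4 CPM, so that its log2 ratio went from 2.82 to -0.68. Slc6a20a, an imino acid transporter gene of the fibroblast list, held its level, at 636 CPM (486 to 816) with and 587 CPM (435 to 773) without them. Without the 11 cells 219 genes in place of 203 were at least 2-fold above the highest other type, and 175 of them were shared.

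**Figure D4:**
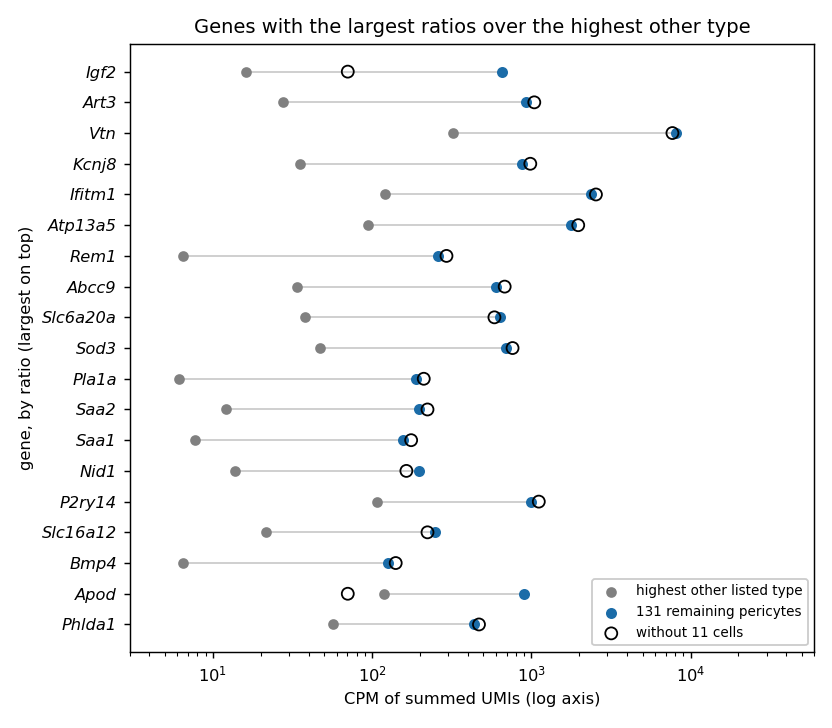
Summed level (CPM, log axis) of genes among the 20 with the largest ratio of the remaining pericytes over the highest other listed type of at least 50 cells. Blue points are the 131 remaining pericytes, grey points that other type, and open circles the 120 cells without the 11 that carry more fibroblast than pericyte list UMIs. Igf2 and Apod fall from 656 and 896 CPM to 70.4 CPM, while Vtn moves from 8127 to 7697 CPM.

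The fibroblast gene group differed from the remaining pericytes in 364 of 2344 genes compared that were at least 2-fold higher (15.5%) and 415 that were at least 2-fold lower (17.7%), with a median log2 ratio of 0.01. A gene of few UMIs can pass 2-fold by counting error alone, and such genes were not separated in these counts. Of 20 pericyte list genes compared 18 were lower, and 14 of 17 fibroblast list genes were higher, including Col1a2, Col3a1, Pdgfra, Slc6a13, Igfbp2, Apod, Mgp and Serping1. The groups were divided on fibroblast genes, so these counts describe the division and are no support for it. Apod stood at 11952 CPM (11031 to 12931), 13.3-fold (10.6 to 16.9) the level in the remaining pericytes, and was found in 32 of 37 cells with up to 92 UMIs. Without the 11 cells, which held 80 of the 86 Apod UMIs of the remaining pericytes, the ratio was 170 (77.6 to 464). Igfbp2, an insulin-like growth factor binding protein gene, was in 28 of 37 cells at 2387 CPM (1985 to 2846), and the 120 cells without the 11 had none.

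The collagen genes differed in how many cells of the group held them. Col1a2, a fibrillar collagen chain gene, was found in 28 of 37 cells with at most 4 UMIs, or 1136 CPM (864 to 1465), against 208 CPM (127 to 322), or 117 CPM (56.3 to 216) without the 11 cells. Col3a1 was found in 13 cells, and 25 of its 45 UMIs were in 1. Ptgds, prostaglandin D synthase of the meninges, was uneven in both groups, with 288 of 541 UMIs in 1 cell of the fibroblast gene group (10413 CPM) and 255 of 377 in 1 remaining pericyte (3928 CPM), and 360 of those 377 lay in the 11 cells. Its ratio between the groups was 2.65 (2.32 to 3.03) with the 11 cells and 52.2 (32.3 to 90.3) without them. Mgp, matrix Gla protein, stood at 4504 CPM in 19 of 37 cells and at 2042 CPM in 82 of 131 remaining pericytes, and so was found in a larger share of the latter.

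Of the 10 genes furthest above the remaining pericytes, 6 had no UMI in the remaining pericytes. Those 6 reached the 10 UMIs needed for comparison through the fibroblast gene group alone, so their place follows in part from the choice. Rbp4, the retinol carrier gene, had 153 UMIs in 15 cells of the group, or 2945 CPM (2497 to 3450), against 7 UMIs (72.9 CPM), or 1 UMI without the 11 cells, and 55 of the 153 were in 1 cell. Clec3b, tetranectin, had 37 UMIs in 9 cells (712 CPM) against 1, a ratio of 68.3 (11.5 to 2772). Cyr61, a matricellular protein gene, had 29 UMIs, Cxcl16, a chemokine, 23, Mfap4, a microfibril protein gene, 16, Edn3, an endothelin, 14, Fgl2 13 and Ddah2 12. Their levels were 17.9-fold (Cyr61), 14.2-fold (Cxcl16), 9.85-fold (Mfap4), 8.62-fold (Edn3), 8.0-fold (Fgl2) and 7.39-fold (Ddah2) the floor of 3 UMIs. The counting error of these levels is left out. S100a6, a calcium binding protein gene, had 51 UMIs in 19 cells against 3, and Junb is given with the immediate early genes.

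In the opposite direction the 10 genes included Atp13a5, Tbx3os1, Rgs4, Abcc9, Aspn, Cox4i2, Slc19a1, Lin7a and Kcnj8. Of the 10, 8 had no UMI in the fibroblast gene group and were compared through the remaining pericytes alone. Tbx3os1, an RNA from the strand opposite Tbx3, had 78 UMIs in 45 remaining pericytes (813 CPM, 642 to 1014), at least 14.1-fold above the floor, and 169 CPM in VSMCA. Whether the counting used strand is not given in the sources used here. Rgs4, a regulator of G-protein signalling, had 64 UMIs (667 CPM) and Aspn, asporin, had 41 (427 CPM). Their levels in VSMCA were 841 and 682 CPM. The ratio of the remaining pericytes over VSMCA was 0.793 (0.594 to 1.05) for Rgs4, an interval that held 1, and 0.627 (0.437 to 0.879) for Aspn. Both thus marked mural cells rather than pericytes alone in this library.

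Immediate early genes were higher in the fibroblast gene group, in part through 1 cell. These genes respond within minutes to stimulation and to tissue dissociation. In the remaining pericytes 16 of 20 were at least 2-fold below the highest other type and none above, where 57.1% and 1.80% of all genes compared were. Fos had 18 UMIs in 5 of 131 cells (188 CPM) and Junb 7 UMIs in 6 cells (72.9 CPM). In the fibroblast gene group 13 of 14 compared were at least 2-fold above the remaining pericytes, against 15.5% of all genes compared, Fos stood at 962 CPM in 7 of 37 cells and Junb at 1944 CPM in 11 cells. The ratio of Junb between the groups was 26.7 (12.5 to 68.0), and 82.8 (22.3 to 693) without the 11 remaining pericytes rich in fibroblast list UMIs, which left 2 Junb UMIs in the other 120. Without those 11 pericytes 12 of 13 genes compared were at least 2-fold higher in the fibroblast gene group. A single cell held 178 of the 450 UMIs of the list, and without that cell 9 of 14 stayed at least 2-fold higher and the list level was 5405 CPM (4781 to 6087), against 1615 CPM (1371 to 1890) in the remaining pericytes. The part of dissociation in these levels was not tested.

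Clock genes were mostly within 2-fold of the highest other type, as 10 of 14 compared were. None was at least 2-fold above the highest other type and 4 (Per1, Per2, Ciart and Bhlhe41) were at least 2-fold below, against 1.80% and 57.1% of all genes compared. Dbp, an output gene of the clock, had 66 UMIs in 51 remaining pericytes (688 CPM, 532 to 875), and the next levels were 506 CPM in astrocytes and 464 in EPC. Its level in the fibroblast gene group was 481 CPM (311 to 710), within overlapping intervals. Per3 stood at 271 CPM (177 to 397) between astrocytes (371 CPM) and EPC (223 CPM), and Arntl had no UMI.

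Of the glucocorticoid responsive and metallothionein genes all 9 compared were at least 2-fold below the highest other type in the remaining pericytes, against 57.1% of all genes compared. The list summed to 1125 CPM (923 to 1359) against 727 CPM in VSMCA. Mt1, a metal binding protein gene, had 39 UMIs in 29 cells (406 CPM, 289 to 556), near VSMCA (299 CPM) and microglia (491 CPM), under endothelial cells (1246 CPM) and far under astrocytes (7925 CPM) and EPC (11092 CPM). In the fibroblast gene group Mt1 stood at 1405 CPM (1101 to 1767), of which 27 of 73 UMIs were in 1 cell, and at 914 CPM without that cell. Tsc22d3, a glucocorticoid target, stood at 396 CPM (280 to 543) against 928 CPM in endothelial cells.

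Of secreted factors, 2 of 14 compared were at least 2-fold above the highest other type and 7 at least 2-fold below, against 1.80% and 57.1% of all genes compared. Il34, a ligand of the microglial receptor Csf1r, had 27 UMIs in 24 remaining pericytes (281 CPM, 185 to 409) against 68.2 CPM in VSMCA, and was also found in 13 of 37 cells of the fibroblast gene group (404 CPM, 250 to 618). The other was Igf2. Igfbp7, a binding protein gene of vessels, was found in 111 of 131 cells at 2907 CPM (2576 to 3269), against 2048 CPM in VSMCA and 1375 in endothelial cells. In the fibroblast gene group 5 of 11 compared (Cxcl12, Ccl19, Ccl11, C4b and Apoe) were at least 2-fold above the remaining pericytes and Igfbp7 was at least 2-fold below, against 15.5% and 17.7% of all genes compared. Ccl11 reached the 10 UMIs needed for comparison through the fibroblast gene group, so this count follows in part from the choice. Of the chemokine genes among them Ccl19 stood at 731 CPM in 12 cells, Cxcl12 at 577 CPM in 18 and Ccl11 at 308 CPM in 5, against 52.1, 177 and 10.4 CPM. Endothelial cells had more Cxcl12 than either group, at 777 CPM.

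Cells that resemble the pericytes by markers alone were counted in every library. A cell was counted when it had a UMI of 2 or more of Vtn, Kcnj8 and Abcc9 and under 3 UMIs of Dcn, Lum and Col1a1. Of the 168 pericytes 77 met this, as did 25 other listed cells, among them 17 endothelial cells, so pericytes were 75.5% of the 102 listed cells that met it. A further 80 of 1732 unlisted cells of the library met it (4.62%, 3.68% to 5.72%). In these 80 cells, Atp13a5, which the choice did not use, stood at 946 CPM (763 to 1159) and Rgs5 at 3743 CPM (3370 to 4146), against 1791 and 5320 CPM in the 77 pericytes, and Cldn5 stood at 356 against 35.5 CPM.

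The brainstem NS library had 182 such cells (4.88%, 4.21% to 5.62%). The 8 other libraries were not assigned to a region or sleep group. The labels do not explain their codes, and rows of the study's lists not used here were not matched to them. These libraries had 16, 37, 37, 6, 2, 2, 146 and 120 such cells in the order of their numbers 1 to 6, 8 and 9. In shares this was 0.621%, 1.17%, 1.35%, 0.172%, 0.0739%, 0.0511%, 4.15% and 3.23%. Mt1 in these cells stood at 1094 CPM (954 to 1249) in library 7 and at 2170 to 3709 CPM in the 5 other libraries with 16 or more of them. Dbp stood at 525 CPM (429 to 635) in library 7 and at 142 to 257 CPM in those 5. The 16 cells of library 1 held 7041 UMIs in all, so its levels, among them the 142 CPM of Dbp, rest on very few UMIs. Of the Mt1 UMIs in library 7, 17 of 219 lay in listed pericytes, at 301 CPM (176 to 483), and 164 in the unlisted cells, at 1668 CPM, so the cell make-up behind this choice differs within 1 library and cannot be told apart from a difference between libraries.

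Ndufa4l2 stood at 1349 CPM (1193 to 1520) in library 7 and at 556 to 1278 CPM in the same 5 libraries, and Ndufa4 at 310 CPM (238 to 397) against 426 to 617 CPM. The 1278 CPM of Ndufa4l2 and the 426 CPM of Ndufa4 are those of library 1 and rest on few UMIs. Within library 7 the 77 listed pericytes had 2270 CPM of Ndufa4l2 and 53.2 CPM of Ndufa4, and the 25 other listed cells 661 and 529 CPM. The order of the isoform genes found in the listed pericytes was thus weaker in cells chosen by markers alone. Such cells include other types, and the part of cell make-up in this was not tested.

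**Figure D5:**
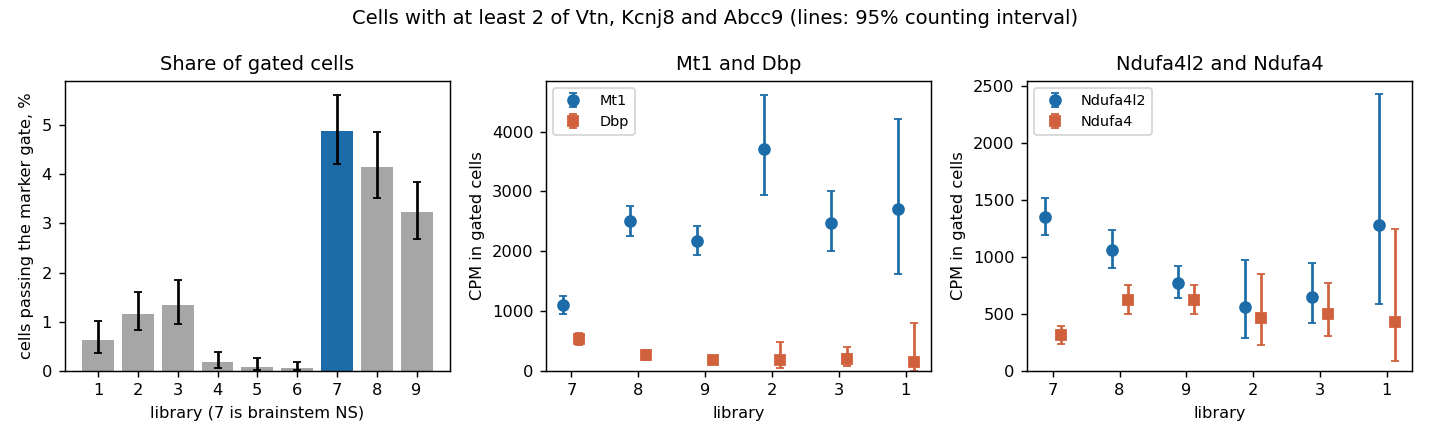
Cells with at least 1 UMI of 2 or more of Vtn, Kcnj8 and Abcc9 and under 3 UMIs of Dcn, Lum and Col1a1. The left panel gives their share of each of the 9 libraries (bars, with exact 95% intervals), of which library 7 (brainstem NS) has 4.88%. The other panels give CPM in these cells (points, with 95% counting intervals) for the 6 libraries with 16 or more of them, where Mt1 is lowest and Dbp highest in library 7.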

How the data were processed

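Single cell suspensions of pooled mouse brain regions were profiled by droplet 3' RNA sequencing. Per the labels and the study's methods, the authors mapped reads to GRCm38 with Cell Ranger 2.2.0, and the deposited table holds its filtered UMI counts, not normalized, for 18634 genes and 29571 cells in 9 libraries. The cell names came from the first 1999 rows of the study's list of named brainstem cells (ordered by barcode, a further 8522 rows not used here), all of which match library 7. The members and the gene lists were chosen with earlier results of these data known. No further filter on cells was applied, and doublets were called with Scrublet in scanpy 1.11.5 but kept. Counts were summed per group in Python 3.11.15 (numpy 2.4.6, scipy 1.17.1), with exact Poisson intervals for CPM and exact Clopper-Pearson intervals for shares, at 95%. The shares of the 3 markers and of the fibroblast gene group were also taken with cells thinned to 500 UMIs. All other shares are of cells as counted and are not matched for depth. Ratios for counting, ranking and log2 values were taken after adding 10 CPM, for genes of 10 or more UMIs on both sides together. Those past 2-fold were counted. Folds printed with an interval are ratios of summed UMIs over the groups' totals, with nothing added, and their 95% intervals cover counting error only. Folds over the floor set the group without UMIs at 3 UMIs. They take no counting error of the other group into account and are not lower bounds. Genes were named by list membership, as the 20 largest ratios over the highest other type of at least 50 cells among genes of at least 100 CPM, and as the 10 largest and 10 smallest ratios between the pericyte groups. Mitochondrial genes and, between the groups, the 3 genes of the split were left out. Other genes singled out in the text were chosen after their values were seen. The cell groups compared came from 1 library without a replicate, so no test was run. The counting procedure was tested on simulated data. Alternatives were another pseudocount, other totals, cell means, deeper cells, other thresholds of the split and a filter on low genes. Some genes that this rule would name are not reported here.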

Additional observations from a re-analysis of the deposited data

How the results depend on the processing

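Restricting to cells of at least 1000 UMIs left 10 remaining pericytes and 25 cells of the fibroblast gene group, which put the share of that group at 71.4% and the shares of Kcnj8 and Abcc9 among all listed pericytes at 11.4% and 14.3%, in place of 35.1% and 23.2%. It raised the genes at least 2-fold above the highest other type from 203 to 531, of which 87 were shared, and between the pericyte groups it left 263 genes higher and 95 lower of 896 compared. Most deep pericytes were of the fibroblast gene group, so depth and group move together in these values. Thinning to 500 UMIs gave 87.2% for Vtn, in place of 92.9%, and 25% for Kcnj8. Without the fibroblast gene group Kcnj8 was found in 44.3%. In the brainstem NS library 39 cells had all 3 markers and 52 of at least 1000 UMIs passed the marker choice, in place of 182. Some alternatives were added once the data had been seen, among them those between the pericyte groups at 1000 UMIs and against all listed pericytes. Dropping the 11 cells rich in fibroblast list UMIs turned the log2 ratio of Apod to -0.68, and adding the 43 listed oligodendrocytes turned Apod to -0.025 and Bmp4 to -0.53 and left 169 genes above the highest other type. Under the other alternatives the count of genes above the highest other type was 181 to 284. Apart from the setting with all listed pericytes, the counts between the pericyte groups were then 329 to 401 higher and 415 to 477 lower. Set against all listed pericytes, the fibroblast gene group had 193 genes higher and 323 lower. No paired analysis was possible because the cell groups compared came from 1 library without a replicate, and no test was run.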
